A study of Mus musculus with 2 samples.

Results

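Set A fibroblasts are mitral valve cells that carried transcripts of Fmod, Prg4, Comp, Angptl7, Wif1, Scx, Chrdl1 and Fibin (set A) rather than of Ptx3, Igfbp3, Tnfaip6, Smoc2, Mmp3, Srpx, Col8a1 and Ms4a4d (set B). They were chosen from measured values. Cells were kept when 200 to 5000 genes were detected in them and mitochondrial genes held at most 10% of their unique molecular identifiers (UMIs, each standing for 1 captured RNA molecule). A kept cell was called a gated fibroblast when it held at least 10 UMIs of Col1a2, Col3a1, Dcn and Lum together, fewer than 5 of C1qa, C1qb and C1qc, and at most 1 of Pecam1 and Cdh5. Members had more set A genes than set B genes with at least 1 UMI. There were 475 members among 1207 gated fibroblasts and 4313 kept cells. The other gated fibroblasts were 563 set B fibroblasts, with more set B than set A genes, and 169 tied cells.

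The study compared mitral valve leaflets of WT mice (Fbn1+/+ littermates) with those of Fbn1 mgR/mgR mice (mgR), all from a colony bred onto C57BL/6J and aged 12 weeks. The mgR allele is a hypomorphic allele of Fbn1, the gene of the microfibril protein fibrillin-1, and is not a deletion, so mgR cells still make the transcript. Leaflets were digested with collagenase and elastase, viable cells were sorted, and 1 droplet library (10x Genomics) was made per genotype. The number of animals behind each library is not given in the labels, and a legend of the study that gives one for its single-cell data does not tie it to the libraries. No agent was given to either group, and with 1 library per genotype no difference below has a replicate check.

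Tendon and ligament fibroblasts are specified by scleraxis (Scx), a basic helix-loop-helix transcription factor, and lay down collagen fibrils whose spacing is set by small leucine-rich proteoglycans such as fibromodulin (Fmod). Valve leaflets and their chordae carry load in the same way, and valve fibroblasts share matrix genes with tendon and cartilage. Lubricin (Prg4) and cartilage oligomeric matrix protein (Comp) are typical products of such load-bearing tissue.

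The WT library held 875 kept cells with a median of 5033 UMIs and the mgR library 3438 kept cells with a median of 7370 UMIs. Members had a median of 5273 UMIs (553 to 11074) and 2094 genes in WT, against 7065 UMIs (513 to 23437) and 2417 genes in mgR. The median mitochondrial share of members was 3.01% in WT and 2.07% in mgR. The libraries shared 2 barcode sequences, and 0 of these marked a member. The methods of the study name only male mice, yet both libraries held Xist-positive cells, in which UMIs of Xist but of none of 4 Y-linked genes were found, and Y-positive cells, in which the reverse was found. Of the members, 25 in WT (21.6%) and 235 in mgR (65.5%) were Xist-positive, 47 (40.5%) and 67 (18.7%) were Y-positive, and 0 and 6 had UMIs of both kinds. Results are therefore also given within Xist-positive and within Y-positive cells. Levels are UMIs summed over the members of a library and divided by their total and are given as CPM (counts scaled to 1000000 UMIs). Parentheses give 95% intervals, which take in counting error and nothing else. CPM count molecules and are not corrected for length.

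Among the 8 set A genes, 4 had a promoter in the RefSeq table used here (build GRCm38.p6). The 250 bases upstream of the start of 3 of these, and of Chad, the gene outside the rule that set members most apart from set B fibroblasts, are shown because Scx is known to bind E-boxes, whose letters are CANNTG. The letters of each CANNTG match are in capitals. The stretches are chr1:134037004-134037253 (+ strand) for Fmod, chr4:148500463-148500712 (− strand) for Angptl7, chr10:121033754-121034003 (+ strand) for Wif1 and chr11:94564797-94565046 (+ strand) for Chad.
Fmod: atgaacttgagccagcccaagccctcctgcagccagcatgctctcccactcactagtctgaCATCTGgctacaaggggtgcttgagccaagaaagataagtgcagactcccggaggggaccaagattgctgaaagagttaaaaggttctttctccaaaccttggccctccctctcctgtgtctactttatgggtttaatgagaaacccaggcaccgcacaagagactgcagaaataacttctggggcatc
Angptl7: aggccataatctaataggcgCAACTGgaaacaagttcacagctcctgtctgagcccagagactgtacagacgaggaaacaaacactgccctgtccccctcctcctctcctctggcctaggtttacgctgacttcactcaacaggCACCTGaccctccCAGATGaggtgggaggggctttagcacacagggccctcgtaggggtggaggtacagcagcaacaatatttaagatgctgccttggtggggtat
Wif1: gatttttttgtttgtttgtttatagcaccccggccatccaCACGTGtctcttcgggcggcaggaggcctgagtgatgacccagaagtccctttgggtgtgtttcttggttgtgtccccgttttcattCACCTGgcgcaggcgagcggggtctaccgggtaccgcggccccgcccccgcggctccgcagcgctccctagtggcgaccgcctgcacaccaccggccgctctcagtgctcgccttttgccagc
Chad: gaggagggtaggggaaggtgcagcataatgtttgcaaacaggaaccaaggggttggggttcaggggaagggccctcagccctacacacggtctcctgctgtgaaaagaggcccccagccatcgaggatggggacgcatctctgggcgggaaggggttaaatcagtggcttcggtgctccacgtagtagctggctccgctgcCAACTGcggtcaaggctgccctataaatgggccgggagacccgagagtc
CANNTG reads the same on both strands and was found in the same window of 66.2% of the 32851 promoters of the table. The Fmod stretch held 1 match, CATCTG, whose first base lies 189 bases before the start. The Angptl7 stretch held 3, at 230, 106 and 93 bases before the start, and the last of these is CAGATG, the same word on the other strand. That word, in either strand, occurred in 14.4% of all promoters. Wif1 held 2 matches, at 210 and 123 bases, and Chad 1, at 49 bases, none of them this word. Fibin had 0 matches, as did Cytl1 and Prelp, which are described below, and Cilp had 3. Whether Scx binds any of these stretches was not measured.

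Fbn1, the altered gene, was examined before any other comparison. It lies on the minus strand of chr2:125300594-125507993 (GRCm38) and is protein coding (ENSMUSG00000027204). WT members held 101 Fbn1 UMIs and mgR members 326, or 160 and 124 CPM, and 50% and 47.4% of members had at least 1. The ratio of mgR to WT was 0.777 (0.620 to 0.981). It was 0.727 (0.488 to 1.13) in Xist-positive and 0.743 (0.460 to 1.21) in Y-positive members, so the direction was shared but the interval of each reached past 1. Set B fibroblasts had 189 CPM in WT and 159 CPM in mgR, a ratio of 0.844 (0.702 to 1.02). How much of the product of the mgR allele the UMI counts take in was not tested.

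The proportion of members was compared between the genotypes. Members made up 13.3% (11.1 to 15.7) of WT kept cells, 116 cells, and 10.4% (9.44 to 11.5) of mgR kept cells, 359 cells, a difference of -2.82 percentage points (-5.44 to -0.389). Gated fibroblasts as a whole were 37.0% of WT and 25.7% of mgR kept cells. Within the gated fibroblasts, members were 35.8% (30.6 to 41.3) in WT and 40.7% (37.4 to 44.0) in mgR, and the difference of 4.85 points had an interval of -1.53 to 11.0. Set B fibroblasts were 47.8% and 46.2% of gated fibroblasts, and tied cells 16.4% and 13.1%. The share of gated fibroblasts that were members was 30.9% in WT and 44.7% in mgR among Xist-positive cells, a difference of 13.8 points (1.77 to 24.5). Among Y-positive cells it was 32.6% and 31.6%, a difference of -1.04 points (-11.4 to 9.09). The pooled shares thus cannot be told apart from the different make-up of the libraries in these cells.

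Members differed in how far they met the rule. The margin, the number of set A genes minus the number of set B genes in a cell, was 5 to 8 in 25 WT members (21.6%) and 130 mgR members (36.2%), a difference of 14.7 points (4.72 to 23.5). It was 2 to 4 in 57.8% of WT and 39.3% of mgR members, a difference of -18.5 points (-28.9 to -7.61), and 1 in 20.7% and 24.5%. All 8 set A genes were found together in 3 WT and 44 mgR members, and 45 WT and 115 mgR members had no set B gene. More genes are found in deeper cells, so each cell was also thinned to 2000 UMIs, which left out 7 WT and 8 mgR members. Sets A and B were then counted again in the thinned cells, which gave 113 WT and 362 mgR members. The filters and the fibroblast gate were those from before thinning. A margin of 5 to 8 was held by 17.7% and 26.5% of these, a difference of 8.82 points (-0.613 to 17.0). A margin of 3 to 8 was held by 36.3% and 54.1%, a difference of 17.9 points (6.92 to 28.1). Of the thinned gated fibroblasts, 6.85% and 11.3% were members with margins of 5 to 8, a difference of 4.47 points (0.387 to 7.97). Among unthinned Xist-positive members, 20% of WT and 37.9% of mgR members had a margin of 5 to 8 (difference -3.75 to 32.6 points), and among Y-positive ones 25.5% and 28.4% (difference -15.2 to 19.7 points).

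**Figure D1:**
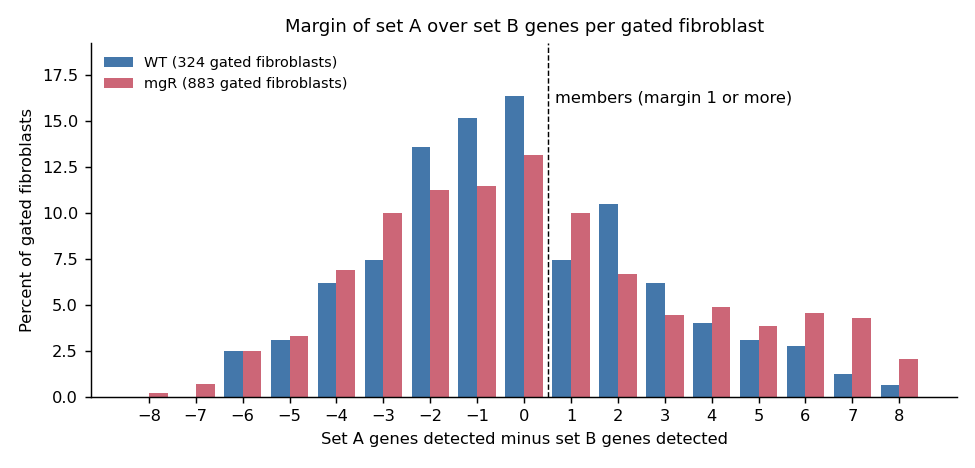
Margin of each gated fibroblast (horizontal axis, set A genes minus set B genes detected) against the percent of the gated fibroblasts of its library (vertical axis), for WT (324 cells) and mgR (883 cells). Members lie right of 0; margins of 5 to 8 hold 7.72% of WT and 14.7% of mgR gated fibroblasts.

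The edge of the rule was gradual. Members with a margin of 1 numbered 24 in WT and 88 in mgR, and the tied cells just outside numbered 53 and 116, of which 12 and 19 had no gene of either set. Prg4 was found in 91.7% and 71.6% of the members with margin 1, against 34.0% and 47.4% of tied cells. For Fmod these values were 12.5% and 14.8% against 0% and 6.03%. Wif1 did not separate the edge, with 45.8% and 47.7% inside against 52.8% and 37.9% outside.

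Levels of the set A genes chose the members and are given as a description only. Pooled ratios also mix margins, since 21.6% of WT and 36.2% of mgR members had margins of 5 to 8. Prg4, on the minus strand of chr1:150449412-150466165, was the most abundant of them, at 5516 CPM in WT and 5361 CPM in mgR members, and was found in 91.4% and 90.5% of members. Its ratio of mgR to WT was 0.972 (0.936 to 1.01). In set B fibroblasts it stood at 374 and 398 CPM, and 2.92% and 2.28% of the cells of a macrophage gate, which should lack the gene, had its UMIs at median depths of 5916 and 8314 UMIs.

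Fmod, on the plus strand of chr1:134037254-134048277, stood at 308 CPM in WT and 527 CPM in mgR members, a ratio of 1.71 (1.47 to 2), and was found in 42.2% and 51.0% of members. It was almost confined to members, which held 96.5% of all Fmod UMIs of WT kept cells and 93.1% of those of mgR kept cells. Comp stood at 935 and 1725 CPM (ratio 1.84, 1.69 to 2.01), in 58.6% and 69.6% of members. At margins of 5 to 8, Fmod stood at 907 and 1117 CPM and Comp at 2275 and 3235 CPM. These are the matrix proteins of the set.

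Among its secreted signaling proteins, Wif1, which binds and blocks Wnt ligands, was the exception in direction. It stood at 1633 CPM in WT and 1005 CPM in mgR members, a ratio of 0.616 (0.573 to 0.662), while the share of members with a UMI was 74.1% and 71.6%. The Wif1 ratio was 0.323 in Xist-positive members, 0.689 in Y-positive members and 0.377 (0.322 to 0.442) in set B fibroblasts, so the lower level was found in each of these groups. In tied cells Wif1 differed little, at 641 CPM (544 to 751) in WT and 608 CPM (552 to 669) in mgR. Angptl7, an angiopoietin-like secreted protein, stood at 174 and 474 CPM (ratio 2.72, 2.24 to 3.34), and in set B fibroblasts at 49.9 and 44.2 CPM. Fibin, a secreted protein, stood at 628 and 836 CPM (ratio 1.33, 1.20 to 1.49). Chrdl1, a BMP antagonist on the X chromosome, stood at 93.5 and 109 CPM, and the interval of its ratio, 0.879 to 1.57, held 1. At margins of 5 to 8, Chrdl1 stood at 320 CPM in WT and 242 CPM in mgR members, and Angptl7 at 414 and 986 CPM.

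Scx, the transcription factor of the set, was scarce. Members held 57 Scx UMIs in WT and 383 in mgR, or 90.4 and 146 CPM (ratio 1.62, 1.22 to 2.18), and 23.3% and 43.5% of members had at least 1. After thinning to 2000 UMIs these shares were 13.8% and 19.9%, so the libraries were closer at equal depth. In WT members of margin 1, 2 to 4 and 5 to 8, Scx stood at 35.5, 41.2 and 254 CPM. In mgR members it stood at 61.4, 102 and 240 CPM, so it was not higher in mgR at the widest margins. The macrophage gate had Scx UMIs in 1.67% and 0.571% of cells.

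**Figure D2:**
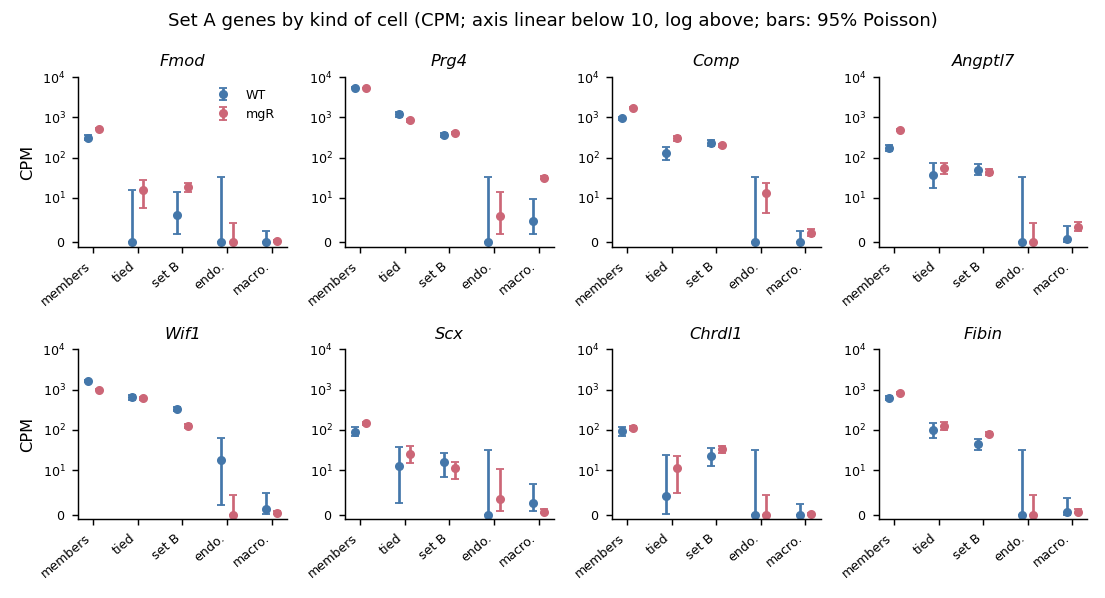
Level of each set A gene (vertical axis, CPM, linear below 10 and logarithmic above) by kind of cell (horizontal axis) in WT and mgR, with 95% Poisson intervals as bars. Members stand above set B fibroblasts for all 8 genes, which the rule fixes, and Wif1 is lower in mgR than in WT members (1005 against 1633 CPM).

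The set A genes were found together within members to different degrees. The same genes chose the members, and the cells were not thinned here, so the shares below describe detection only. Among Fmod-positive members, which numbered 49 in WT and 183 in mgR, Chrdl1 was found in 30.6% and 53.0%, against 7.46% and 11.9% of Fmod-negative members. Angptl7 was found in 46.9% and 71.0% of Fmod-positive members against 19.4% and 33.5% of the others. Wif1 varied less with Fmod, at 79.6% and 78.7% against 70.1% and 64.2%. Prg4 was found in most members with or without Fmod, whereas Chrdl1 was uncommon in members without it.

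The name tendon-like was checked against tendon genes outside the rule, and of the defining ones 1 was absent and others were scarce. Tnmd, the membrane protein of mature tendon cells, had 0 UMIs in the kept cells of both libraries. Mkx, a second transcription factor of tendon, had 2 UMIs in WT and 10 in mgR members, Kera 0 and 21, and Tnc 1 and 19. Tppp3, a marker of the tendon sheath, was found in 10.3% and 22.6% of members but in 23.3% and 44.0% of the macrophage gate, and members held only 5.78% and 3.40% of its UMIs. Thbs4, a tendon thrombospondin, was found in 6.03% and 8.08% of members and in at most 0.245% of set B fibroblasts, but 10 cells or fewer held every one of its WT UMIs. The cells are therefore called set A fibroblasts here rather than by the tendon name.

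Cartilage genes outside the rule were examined in the same way. Of 20 that entered, 8 were at least 2-fold higher in members than in set B fibroblasts in both libraries and 1 was at least 2-fold lower, beside 2.48% higher and 2.61% lower among all 10445 genes with at least 10 UMIs. This contrast is the one the rule used, so the counts only describe it. Of 18 tendon genes, 3 were higher and 2 lower by the same measure. The 8 cartilage genes were Chad, Cytl1, Col11a1, Col11a2, Matn4, Hapln1, Ucma and Clec3a, which are known from cartilage. Col2a1 and Acan, 2 other structural cartilage genes, were near 0, with 0 and 1 UMIs of Col2a1 and 3 and 13 of Acan. Sox9, the transcription factor of cartilage and of valve fibroblasts, stood at 323 and 224 CPM in members and 240 and 226 CPM in set B fibroblasts, so it did not mark members.

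Chad, the gene of chondroadherin, a leucine-rich matrix protein that binds collagen and cells, lies on the plus strand of chr11:94565047-94569127. WT members held 125 Chad UMIs and mgR members 1759, or 198 and 671 CPM, whereas set B fibroblasts held 0 and 1. With a floor of 3 UMIs for a count of 0, the level of Chad in WT members was at least 54.3-fold higher than in set B fibroblasts. It was found in 13 WT members (11.2%) and 98 mgR members (27.3%), against 0.417% and 0.254% of the macrophage gate. The ratio of mgR to WT was 3.39 (2.82 to 4.09). The Chad ratio was 1.20 (0.958 to 1.52) in Xist-positive and 4.04 (2.81 to 5.98) in Y-positive members, and 10 cells held 96.8% of the WT UMIs.

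Most set A genes were found more often in Chad-positive than in Chad-negative members. Members with margins of 5 to 8 held 109 of the 125 WT and 1620 of the 1759 mgR Chad UMIs. Such members have more set A genes by definition, and the cells were not thinned here. The shares below therefore describe detection only. All 13 WT and all 98 mgR Chad-positive members had Prg4, against 90.3% and 87.0% of Chad-negative ones. Comp was found in 84.6% and 92.9% against 55.3% and 60.9%, and Fibin in 92.3% and 92.9% against 54.4% and 62.5%. Wif1 was found less often in WT, in 61.5% against 75.7%, and more often in mgR, in 85.7% against 66.3%. Chrdl1 was found in 69.2% and 62.2% of Chad-positive members against 10.7% and 21.8% of Chad-negative ones. Thbs4 was found in 30.8% and 23.5% against 2.91% and 2.30%. Sox9 did not follow, at 69.2% and 54.1% against 50.5% and 57.5%.

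Genes outside the rule that were higher in members than in set B fibroblasts were named by their smaller ratio over the libraries, among genes with at least 100 CPM. Of 1753 such genes, 31 (1.77%) were at least 2-fold higher in members in both libraries and 108 (6.16%) at least 2-fold lower. Among the 15 named higher ones, Prelp, a leucine-rich proteoglycan that anchors basement membranes to collagen, stood at 1552 and 1821 CPM in members against 484 and 385 CPM in set B fibroblasts. Abi3bp, a collagen-binding matrix protein, stood at 1111 and 1736 CPM against 425 and 479 CPM. Ecrg4, which encodes a secreted peptide precursor, stood at 1481 and 2896 CPM against 539 and 715 CPM.

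Cilp, a cartilage matrix protein, stood at 101 and 122 CPM against 0 and 4.53 CPM and was found in 11.2% and 16.4% of members. Ltbp2, a microfibril-associated relative of the latent TGF-β binding proteins, stood at 160 and 129 CPM against 42.6 and 34.8 CPM. Cytl1, a small secreted protein known from cartilage, stood at 880 and 1755 CPM against 144 and 466 CPM. Cytl1 was not particular to fibroblasts, since 42.9% of WT and 56.6% of mgR cells of an endothelial gate had its UMIs. The remaining 9 named genes were Pdzrn4, Htra4, Pi16, Crispld1, Rasl11b, Pamr1, Fxyd6, Rin2 and Chad, with ratios from 2.34 (Rin2, mgR) up to the value of Chad.

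Among the genes named as lower in members were several inflammatory ones. Cxcl1, a neutrophil chemokine, stood at 96.7 and 94.6 CPM in members against 836 and 2428 CPM in set B fibroblasts, and Ccl2, a monocyte chemokine, at 61.8 and 34.0 CPM against 891 and 736 CPM. Of the 13 chemokine and cytokine genes that entered, 8 were at least 2-fold lower in members in both libraries and 0 higher, and of 10 complement genes 5 were lower and 0 higher. Other lists had lower genes too. Of 21 collagen chains 5 were lower and 1 higher, and of 19 immediate early and heat shock genes 5 and 0. Of 25 genes that respond to the kinase complex mTORC1, 5 were lower and 0 higher. The shares over all 10445 genes were 2.61% lower and 2.48% higher, and the rule used this contrast, so these counts too are a description. C3, the central complement component, stood at 162 and 177 CPM against 671 and 783 CPM. Also named by the ranking were Ccl7, Cxcl10, Gdf15, C1s1, Adamts1, Fmo2 and Ptgs2, with ratios up to 0.224 (Ptgs2, WT). The lowest was that of Gdf15 in WT, 0.0215 (0.00258 to 0.0795), which rests on 2 UMIs in members.

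Some of these levels were graded across the margin and others were not. Prelp stood at 931, 1191 and 2956 CPM in WT members of margin 1, 2 to 4 and 5 to 8, and at 855, 1298 and 2911 CPM in mgR members. Ecrg4 stood at 504, 1303 and 2802 CPM in WT and 1170, 1792 and 5007 CPM in mgR. Chad stood at 7.1, 44.1 and 727 CPM in WT and 0, 141 and 1589 CPM in mgR. Ltbp2 was not graded, at 149, 179 and 127 CPM in WT and 126, 109 and 149 CPM in mgR, nor was Cytl1 in WT, at 1130, 594 and 1294 CPM. Postn, the gene of periostin, went the other way, at 1456, 935 and 447 CPM in WT and 1183, 1016 and 539 CPM in mgR. At margins of 5 to 8 the ratios of mgR to WT were 0.985 for Prelp, 1.21 for Postn, 1.79 (1.62 to 1.98) for Ecrg4 and 2.18 (1.80 to 2.68) for Chad.

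**Figure D3:**
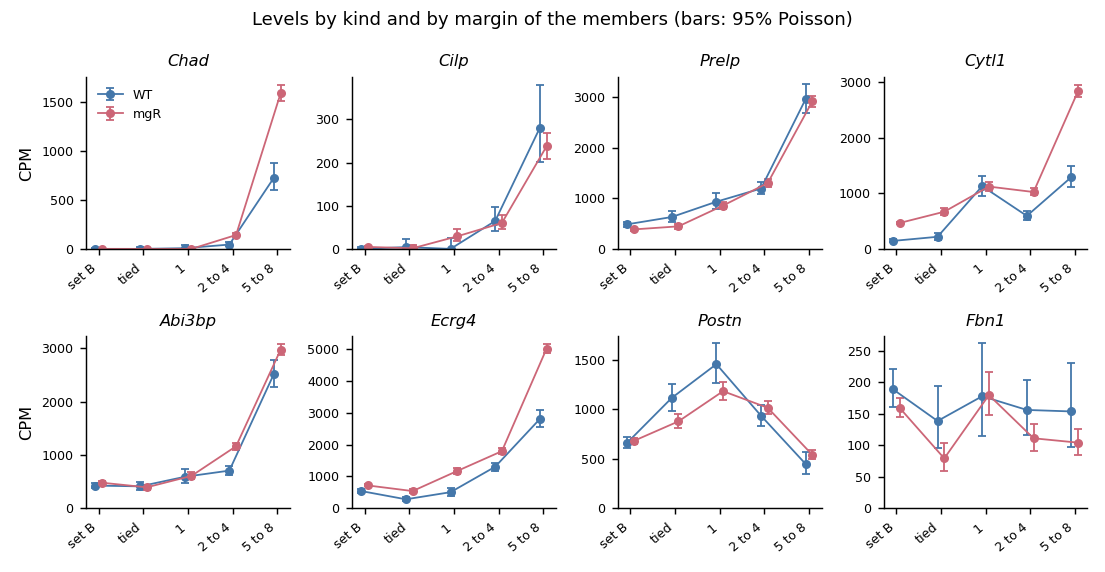
Levels (vertical axis, CPM) of genes by kind of gated fibroblast and, for members, by margin (horizontal axis), in WT and mgR, with 95% Poisson intervals as bars. Prelp and Ecrg4 are highest and Postn lowest at margins of 5 to 8 in both libraries.

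The genotypes were then compared over all genes measured well in members. Of 1512 genes outside the rule with at least 100 CPM in a library, 59 (3.9%) were at least 1.5-fold higher in mgR members and 88 (5.82%) at least 1.5-fold lower, and the median log2 ratio was -0.03. The interval of each of these 147 ratios lay on 1 side of 1. The limits on level and ratio all but fixed this outcome, so it adds no support to the calls. The direction held in both Xist-positive and Y-positive members for 52 of the 59 and 66 of the 88. The 20 genes named below were the extremes among 700 genes that met further limits on the share of cells and on the level in other cells, and whose direction was the same in Xist-positive and Y-positive members, so that agreement between those groups is a condition of the choice.

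Several of the 10 genes named as higher in mgR members encode matrix or secreted proteins. Aspn, the gene of asporin, a leucine-rich proteoglycan that binds collagen and TGF-β, stood at 76.1 CPM in WT and 272 CPM in mgR members (ratio 3.57, 2.67 to 4.89) and was found in 20.7% and 45.1% of them. Its ratio was 9.78 in Xist-positive and 2.34 in Y-positive members, and 1.31 (0.919 to 1.90) in set B fibroblasts. Sfrp2, a secreted Wnt modulator, stood at 57.1 and 258 CPM (ratio 4.53, 3.24 to 6.52), against 389 and 482 CPM in set B fibroblasts. Clu, the gene of the secreted chaperone clusterin, stood at 369 and 982 CPM (ratio 2.66, 2.32 to 3.05), whereas set B fibroblasts had 207 and 200 CPM.

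Ccn5, a matricellular protein also called Wisp2, stood at 66.6 and 163 CPM (ratio 2.44, 1.78 to 3.44). Igfbp5, which binds insulin-like growth factors, stood at 109 and 269 CPM in members (ratio 2.46, 1.92 to 3.20) but at 374 and 232 CPM in set B fibroblasts (ratio 0.622, 0.542 to 0.714). In members with margins of 5 to 8 the Igfbp5 ratio was 0.751, below 1. Ly6a, which encodes the surface protein Sca-1 and belongs to a family of like genes, stood at 103 and 311 CPM (ratio 3.01, 2.34 to 3.94), and at margins of 5 to 8 its ratio was 1.02. Set B fibroblasts had more Ly6a, at 253 and 648 CPM (ratio 2.56, 2.22 to 2.97), so the higher level in mgR was not particular to members.

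The clock-regulated genes Dbp and Nr1d1, transcription factors of the circadian cycle, were both higher in mgR members. Dbp stood at 36.5 and 139 CPM (ratio 3.80, 2.49 to 6.07) and Nr1d1 at 47.6 and 127 CPM (ratio 2.66, 1.83 to 4.01). The Dbp ratio was 1.20 (0.722 to 2.13) in Xist-positive and 14.2 (4.65 to 70.4) in Y-positive members, the last with 3 WT UMIs, and after thinning its log2 ratio was 0.88 in place of 1.90. The Nr1d1 ratio was 1.54 (0.866 to 3.03) and 2.9 (1.44 to 6.43). In set B fibroblasts the ratios of Dbp and Nr1d1 were 3 and 2.85, so members were not alone in this. The hour at which the valves were taken was not given in the sources used here, and its part was not tested. Tcap, the gene of a sarcomere protein, had the highest ratio, with 6 UMIs in WT and 427 in mgR members (17.1, 7.80 to 46.9), but 10 cells held 66.0% of its mgR UMIs.

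Genes lower in mgR members included elastic fibre and basement membrane genes. Eln, the gene of elastin, stood at 105 CPM in WT and 38.5 CPM in mgR members (ratio 0.368, 0.267 to 0.510) and was found in 30.2% and 16.7% of them. The Eln ratio was 0.388, 0.382 and 0.401 at margins of 1, 2 to 4 and 5 to 8, and 0.880 (0.679 to 1.15) in set B fibroblasts. In Xist-positive members it was 0.736 (0.337 to 1.90, with 7 WT UMIs), and in Y-positive members 0.256 (0.136 to 0.460). Efemp1, the gene of fibulin-3, stood at 190 and 77.5 CPM (ratio 0.407, 0.323 to 0.515), with a ratio of 1.18 at margins of 5 to 8. Nid1, a basement membrane protein, stood at 149 and 64.5 CPM (ratio 0.433), and Sdc3, a cell surface proteoglycan, at 309 and 143 CPM (ratio 0.462). In set B fibroblasts the ratio was 0.763 (0.657 to 0.888) for Efemp1, 0.739 (0.613 to 0.894) for Nid1 and 0.655 (0.535 to 0.806) for Sdc3. The lower levels of Efemp1, Nid1 and Sdc3 were thus not particular to members.

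Vegfa, the angiogenic growth factor, stood at 130 and 37.8 CPM (ratio 0.291, 0.215 to 0.394), and its ratio in set B fibroblasts was 0.429. Hspa1b and Hspa1a, near-identical heat shock genes whose reads can be shared, had ratios of 0.181 and 0.396 in members and 0.319 and 0.470 in set B fibroblasts. Pdia4, an enzyme of protein folding in the endoplasmic reticulum, had a ratio of 0.408 and Aldh3a1, an aldehyde dehydrogenase, 0.333. Their ratios in set B fibroblasts were 0.737 (0.604 to 0.905) and 0.373 (0.263 to 0.533). AY036118, an annotated non-coding RNA on chromosome 17, had a ratio of 0.241 in members, 3234 against 778 CPM, and 0.200 in set B fibroblasts. The macrophage gate had 3030 and 636 CPM of it, so AY036118 was lower in mgR cells of other kinds too.

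**Figure D4:**
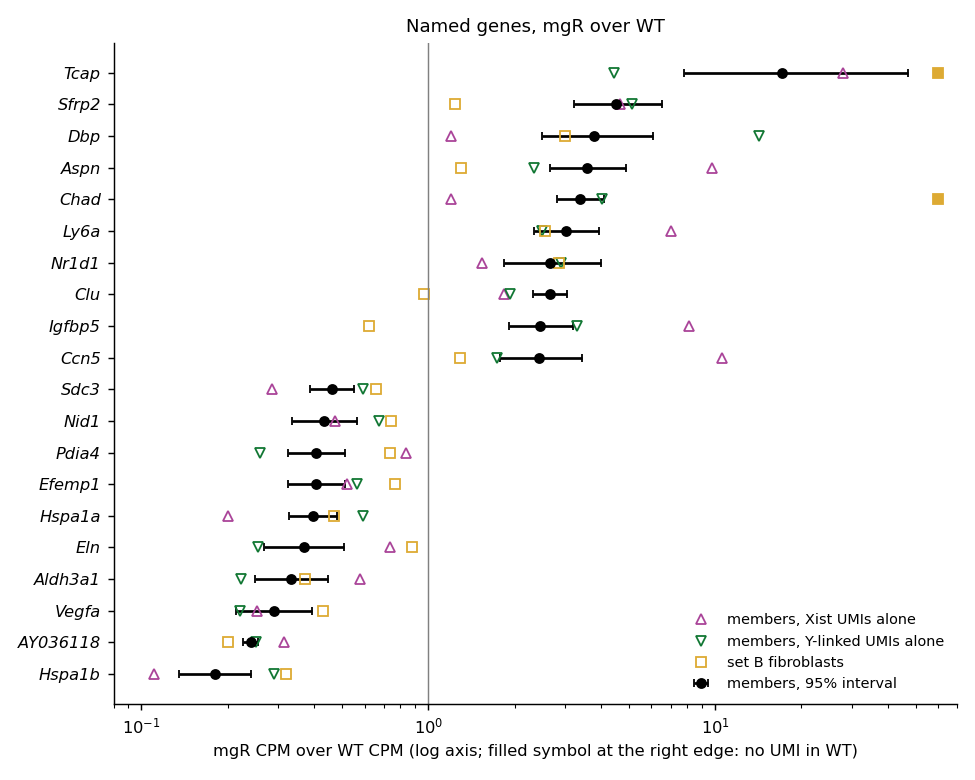
Ratio of mgR to WT (horizontal axis, log scale) of the 20 named genes (vertical axis) in members, with 95% intervals as bars, and the ratios within Xist-positive members, within Y-positive members and in set B fibroblasts as open symbols (filled at the right edge where WT had 0 UMIs). Igfbp5 lies above 1 in members (2.46) and below 1 in set B fibroblasts (0.622).

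Lists of genes were read against all 10445 genes with at least 10 UMIs in members, of which 10.4% were at least 1.5-fold higher in mgR, 15.7% at least 1.5-fold lower, and whose median log2 ratio was -0.10. For these counts of genes a sum under 3 UMIs was set to 3. Of the 10 small leucine-rich proteoglycans that entered, which space collagen fibrils, 3 were higher and 0 lower, with a median of 0.20. The 3 were Aspn, Chad and Kera, the last with 0 and 21 UMIs. Bgn, the most abundant of them, stood at 3250 and 3064 CPM. Of 18 tendon genes 6 were higher and 1 lower (median 0.23), among them Ptgis, the prostacyclin synthase, at 612 and 966 CPM. Thbs4 was the lower one, at 77.7 and 24.8 CPM.

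Of 21 collagen chains that entered, 2 were higher and 3 lower, with a median of -0.23. Col1a1, the main chain of type I collagen, stood at 1175 and 925 CPM (ratio 0.788, 0.725 to 0.856), and Col4a1, a basement membrane chain, at 157 and 85.1 CPM (ratio 0.542, 0.426 to 0.694). The Col4a1 ratio was 1.21 in Xist-positive and 0.301 in Y-positive members. Col11a1 was one of the higher ones, at 17.4 and 37.0 CPM (ratio 2.12, 1.14 to 4.39).

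Elastic fibre genes differed in direction. Of 21 that entered, 2 were higher, 5 lower and the median was -0.27. Besides Eln and Efemp1, Ltbp4, which guides elastin assembly, was lower at 975 and 536 CPM (ratio 0.550, 0.5 to 0.605), with ratios of 0.563 and 0.586 in Xist-positive and Y-positive members. Loxl1, an elastin cross-linking enzyme, was lower at 251 and 166 CPM (ratio 0.664, 0.552 to 0.802). Fbln5 and Mfap5, an elastin-binding fibulin and a microfibril protein, were higher, at 216 and 395 CPM (ratio 1.83, 1.53 to 2.21) and at 330 and 591 CPM (ratio 1.79, 1.55 to 2.08).

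Wnt genes had a median of -0.47, with 3 of 27 higher and 10 lower. After thinning it was -0.30. Lrp5, a Wnt co-receptor, stood at 63.4 and 25.6 CPM (ratio 0.403, 0.269 to 0.612), Axin2, a target of canonical Wnt signaling, at 49.1 and 27.5 CPM (ratio 0.559, 0.362 to 0.881), and Fzd1, a receptor, at 98.3 and 61.4 CPM (ratio 0.625, 0.463 to 0.852). Among secreted Wnt antagonists Sfrp2 had the ratio of 4.53 given above, whereas Frzb stood at 239 and 280 CPM and Dkk3 at 1389 and 1426 CPM, with ratios of 1.17 and 1.03. The list median was -0.76 in Xist-positive and -0.09 in Y-positive members, beside -0.18 and -0.10 over all genes. Members stood above set B fibroblasts by 2-fold in both libraries for 9 of the 27, Frzb, Dkk3, Wnt5a and Rspo3 among them, and below for 1. Over all 10445 genes, 2.48% were higher and 2.61% lower by this measure. The rule used this contrast, so these counts only describe it.

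TGF-β genes had 1 of 24 higher and 4 lower (median -0.15), and BMP genes 1 of 21 higher and 4 lower (median -0.05). The receptor Tgfbr3 stood at 109 and 70.2 CPM (ratio 0.642, 0.484 to 0.859), whereas Inhba, which encodes an activin subunit, stood at 28.5 and 55.7 CPM (ratio 1.95, 1.19 to 3.39). Fst, the gene of the activin antagonist follistatin, was the higher gene of the BMP list, with 3 and 77 UMIs (ratio 6.18, 2.04 to 30.6). Of 13 integrin subunits 1 was higher and 2 lower (median -0.06). Itgb1, the β1 subunit, stood at 523 and 445 CPM (ratio 0.850, 0.751 to 0.963) and Itga5, the α chain of the fibronectin receptor, at 49.1 and 23.7 CPM (ratio 0.481, 0.308 to 0.767).

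Genes that respond to mTORC1, the growth-regulating kinase complex, had 1 of 25 higher and 6 lower (median -0.35). Fasn, the fatty acid synthase, stood at 61.8 and 26.7 CPM (ratio 0.432, 0.288 to 0.656) and Mthfd2, an enzyme of mitochondrial folate metabolism, at 58.7 and 32.8 CPM (ratio 0.559, 0.376 to 0.846). Matricellular genes had 6 of 21 higher and 2 lower (median 0.15), with Fn1, the gene of fibronectin, at 7 and 171 UMIs (ratio 5.88, 2.79 to 14.8). Fn1 was found in 6.03% and 12.5% of members, and its ratio was 6.08 in Xist-positive and 0.411 in Y-positive members. IGF genes had 3 of 10 higher and 0 lower (median 0.14), with Pappa2, a protease of IGF binding proteins, at 31.7 and 77.1 CPM (ratio 2.43, 1.53 to 4.06).

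Contractile genes had 2 of 7 higher and 1 lower (median 0.47), with Acta2 at 71.3 and 112 CPM (ratio 1.57, 1.14 to 2.20). Mechanosensing genes had 2 of 8 higher and 0 lower (median 0.17), hyaluronan and versican genes 1 and 1 of 10 (median -0.07), and proteases and inhibitors 2 and 3 of 20 (median -0.04). Cartilage genes had 5 and 3 of 20 (median 0.21), chemokines and cytokines 1 and 3 of 13 (median -0.23), complement genes 2 and 2 of 10 (median -0.16), immediate early and heat shock genes 1 and 4 of 19 (median -0.02), and hypoxia and glycolysis genes 3 and 5 of 18 (median 0.01). Adamts15, a versican-cleaving protease, stood at 84.0 and 25.9 CPM (ratio 0.309, 0.212 to 0.451).

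**Figure D5:**
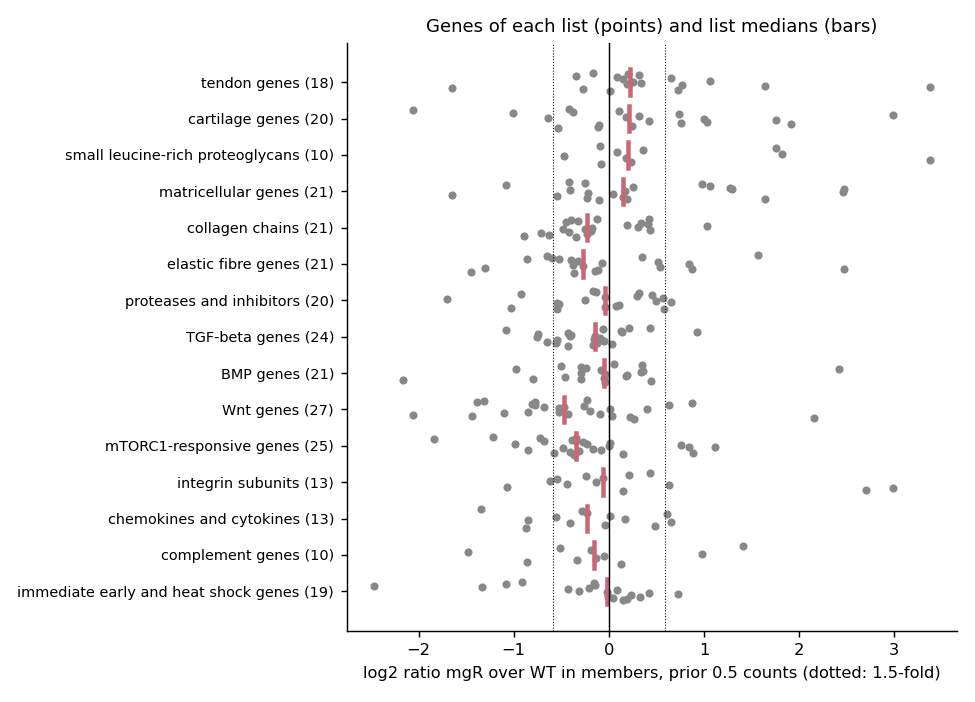
Log2 ratio of mgR to WT in members (horizontal axis, prior of 0.5 counts) for the genes of 15 lists (points) and the list medians (bars), with the number of genes that entered after each name. As drawn, the median of the Wnt genes is -0.47 and that of the tendon genes 0.23.

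Markers of other cells were found at low levels in members. The 10 macrophage markers outside the gate summed to 30.1 CPM in WT and 227 CPM in mgR members, against 17740 and 22510 CPM in the macrophage gate. They were found in 15.5% and 39.3% of members, and Adgre1, Fcer1g, Lyve1, Ptprc and Cd163 were at 0 in WT and none of the 10 at 0 in mgR. The 7 T cell markers summed to 0 and 32.4 CPM, in 1.67% of mgR members. The 10 endothelial markers summed to 72.9 and 89.7 CPM, the 8 mural markers to 220.4 and 256 CPM, the 7 Schwann cell markers to 132 and 169 CPM, the 6 melanocyte markers to 17.4 and 18.7 CPM, the 7 mesothelial markers to 1.59 and 0 CPM and the 7 cardiomyocyte markers to 47.6 and 24.8 CPM. Scrublet, a doublet caller, marked 9 WT and 52 mgR kept cells, of which 0 and 2 were members. In the 98 WT and 215 mgR members without any macrophage or T cell marker UMI, 60 genes were at least 1.5-fold higher and 103 lower in mgR, beside 59 and 88 in all members.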

How the data were processed

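Droplet single-cell RNA-Seq counts were analysed for 1 WT and 1 mgR library. The authors deposited raw counts of UMIs for each gene in each barcode. The submitters' processing notes name Cell Ranger 7.1.0 and mm10, and the annotation was not given in the sources used here. The matrices held 1104 WT and 3802 mgR barcodes with 5381844 and 28215539 UMIs over 32285 features. Symbols on more than 1 feature (38) were left out.

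The limits of the study on genes and mitochondrial share were applied. UMIs were summed per library and kind of cell and divided by their total to give CPM. Intervals (95%) were exact Poisson for sums of UMIs, Clopper-Pearson for shares and conditional binomial for ratios of CPM, and those of a difference between shares were made from the limits of both. No test was run, since each genotype has 1 library. A count of 0 was taken to allow 3 counts, and log2 ratios of lists used a prior of 0.5 counts.

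The named genes were the 10 highest and 10 lowest ratios of mgR to WT among genes that reached 100 CPM in either library. They also needed a UMI in at least 10% of the members of the higher library, the same direction in per-cell means and in both Xist-positive and Y-positive members, and a level of at least 50% of that in the other kept cells. For members against set B fibroblasts, the 15 highest and 10 lowest were taken by the smaller ratio over the libraries. 1 of the lowest is not reported here. Mitochondrial, ribosomal protein, haemoglobin, predicted and sex-linked genes and those of the rule were left out of the ranking. Fbn1, the genes of the rule and genes of the lists are described beside these, and the examples drawn from each list were chosen after their values were seen.

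The rule for members and the lists were chosen with earlier results of these data known. Gene positions came from the GENCODE annotation of GRCm38, in which 32158 of the 32285 identifiers were found, and upstream sequences from RefSeq (GRCm38.p6). Alternatives covered the margin, thinning to 2000 UMIs, doublets, mitochondrial share, the genes of set A, Xist-positive and Y-positive cells, scaling, weighting, filters and the prior. The scripts used Python 3.11.15, numpy 2.4.6, scipy 1.17.1, pandas 2.3.3 and scanpy 1.11.5, and were tested on simulated data.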

Additional observations from a re-analysis of the deposited data

Results flagged for a closer look

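The results in this section had opposite directions in 2 groups of cells under the same contrast of mgR with WT, and the difference between the groups was not tested in any of them. The share of kept cells that were members differed by 1.08 percentage points among Xist-positive cells and by -4.69 points among Y-positive cells. As a share of gated fibroblasts the corresponding differences were 13.8 and -1.04 points. The median log2 ratio of the integrin subunits in members was 0.61 in Xist-positive and -0.70 in Y-positive cells. The median of the contractile genes was -0.70 and 0.71 in the same groups. Both lists are short, with 13 and 7 genes, and the WT members behind these medians numbered 25 and 47. Igfbp5 had a ratio of 2.46 in members and of 0.622 in set B fibroblasts.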

How the results depend on the processing

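Depth and cell number limited the WT side most, with 116 members, and intervals cover counting error only. No paired analysis was possible because the labels give each genotype 1 library and no result comes from a test.

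The numbers of genes past 1.5-fold in mgR members (59 higher, 88 lower) moved with fewer cells or counts and with the filter: 136 were lower with a margin of at least 2, 107 were higher and 165 lower after thinning, 168 and 247 in Xist-positive members, 124 and 206 in Y-positive members, and 423 and 800 with a filter of 20 CPM. With that filter, 132 genes were past 2-fold higher and 251 lower in members than in set B fibroblasts, in place of 31 and 108. The difference in the share of kept cells that were members turned to 1.08 points in Xist-positive cells, and that in the share of gated fibroblasts rose to 13.8 points. The log2 ratio of Fbn1, -0.37 with a prior of 0.5 counts, was -0.0074 in members with a margin of 1, where the ratio without a prior was 1.01. Named genes turned at single margins: Chad to -3.72 at a margin of 1, where it had 1 and 0 UMIs, and Ly6a to -0.017, Igfbp5 to -0.444 and Efemp1 to 0.041 at margins of 5 to 8. For these turns the cause was not tested. Chosen after seeing the data were the splits by margin, the cells without macrophage or T cell marker UMIs, and the alternatives run on named genes. Without the cells with such UMIs the difference in the share of kept cells was -0.478 points (-6.20 to 5.02). Of the 20 named genes, 16 kept their direction in all 14 alternatives, but the directions in Xist-positive members, in Y-positive members and in per-cell means were conditions of naming and could not turn. Of 300 values of list medians under alternatives, 292 lay within the interval of the reported median and 8 outside it. Turns were counted only where that interval left out 0. The intervals of all 20 lists held 0, so no turn could be counted. Medians did change sign, as for the contractile genes, from 0.47 to -0.70 in Xist-positive members.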

Other observations

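Spp1, the gene of osteopontin, a matricellular protein of bone and of macrophages, was found in members and hardly in set B fibroblasts. Members held 78 Spp1 UMIs in WT and 154 in mgR, or 124 and 58.8 CPM (ratio 0.475, 0.360 to 0.632), and set B fibroblasts held 1 and 0. It was found in 7.76% of WT and 12.8% of mgR members, and 10 cells held all of the WT UMIs.

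Pappa2, a protease that cleaves IGF binding proteins, moved in different directions in the kinds of fibroblast. Its ratio of mgR to WT was 2.43 (1.53 to 4.06) in members and 0.322 in set B fibroblasts, where WT had 16 and mgR 18 UMIs. Igfbp6 had ratios of 3.51 (1.86 to 7.48) in members and 4.67 in set B fibroblasts, but 10 cells held 91.8% of its mgR UMIs in members. The differences between the kinds of fibroblast were not tested.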
